A study of Homo sapiens with 4 samples.

Results

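SIX3, SIX6, RAX, HESX1, LHX2, LHX5, FEZF1 and VAX1 are transcription factor genes that pattern the front end of the vertebrate neural plate, where the forebrain and eyes form. They were chosen by symbol, with earlier results of these data known, and all 8 were found once among the 36601 features of the deposited count matrices. They were followed in 4 single-cell RNA libraries of H9, a human embryonic stem cell line, put through a protocol that leads to dopaminergic neurons. The groups were SIRT1 knockout cells at day 6 (labelled as a Sirtuin 1 deletion), wild-type cells at day 6, SIRT1 knockout cells at day 0 and wild-type cells at day 0. Day 0 is the undifferentiated culture. SIRT1 is an NAD-dependent protein deacetylase. Each group had 1 library. Without replicates, conditions were not tested against each other, and intervals cover counting only. The sources used here give neither the form of the deletion nor the number of clones.

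Cells with at least 4000 unique molecular identifiers (UMIs, each a captured RNA molecule), at least 1000 genes and at most 20% mitochondrial UMIs were read. These were 4419 knockout and 5372 wild-type cells at day 6, and 7275 knockout and 5533 wild-type cells at day 0. The cells held between 51424092 and 73451883 UMIs per library, with medians of 8367 to 13169 per cell. Any pair of libraries shared between 5 and 18 cell barcodes. SIRT1 itself stood at 9.95 UMIs per 1000000 UMIs (CPM) in knockout and 30.2 CPM in wild-type cells at day 6, and at 7.11 CPM in knockout and 32.3 CPM in wild-type cells at day 0. POU5F1, a defining factor of pluripotent cells, had a UMI in 6995 of 7275 knockout and 5225 of 5533 wild-type cells at day 0 after thinning each cell to 4000 UMIs, and in 1400 of 4419 knockout and 1923 of 5372 wild-type cells at day 6. The share of a cell's UMIs from chromosome 20 was taken, here and below, without mitochondrial and ribosomal protein genes. Cells with a share of at least 3% were 27.3% of knockout and 78.1% of wild-type cells at day 6. At day 0 they were 28.3% of knockout and 96.3% of wild-type cells, so this share moved with genotype.

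In the embryo, the anterior neural plate is set apart from midbrain and hindbrain where WNT signalling is kept low. SIX3 and its paralogue SIX6 are homeodomain factors of this region and of the eye field, and SIX3 is known to repress WNT genes there. RAX is an eye field homeodomain factor, HESX1 a homeodomain repressor needed for forebrain and pituitary and also expressed in pluripotent stem cells, and LHX2 and LHX5 are LIM homeodomain factors of eye, cortex and anterior neural plate. FEZF1 is a zinc finger repressor of the prospective forebrain, and VAX1 a homeodomain factor of the ventral forebrain and optic stalk. A protocol aimed at midbrain dopaminergic neurons targets cells further back in the neural tube than the ones these genes mark.

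RefSeq promoter windows (GRCh38.p14) were matched for 6 of the 8 members, with 8 windows in all. Stretches from 3 genes are shown because they differ in what their genes did: SIX6 had the highest ratio of knockout over wild type at day 6, VAX1 was nearly limited to day 6 in both genotypes, and HESX1 was present on both days. The bases upstream of the start that overlap no annotated exon were kept, 5′ to 3′ on the gene's strand, at chr14:60508896-60508950 (plus) for SIX6, chr10:117138302-117138520 (minus) for VAX1 and chr3:57200029-57200228 (minus) for the downstream of the 2 HESX1 starts. Capitals mark TAATTA, a core recognised by many homeodomain proteins, which reads the same on both strands.
SIX6: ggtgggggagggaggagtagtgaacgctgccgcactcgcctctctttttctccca
VAX1: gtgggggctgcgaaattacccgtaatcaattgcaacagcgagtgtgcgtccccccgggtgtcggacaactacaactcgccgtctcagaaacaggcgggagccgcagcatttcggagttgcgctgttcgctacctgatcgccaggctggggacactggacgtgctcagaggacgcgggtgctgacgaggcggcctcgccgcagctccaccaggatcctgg
HESX1: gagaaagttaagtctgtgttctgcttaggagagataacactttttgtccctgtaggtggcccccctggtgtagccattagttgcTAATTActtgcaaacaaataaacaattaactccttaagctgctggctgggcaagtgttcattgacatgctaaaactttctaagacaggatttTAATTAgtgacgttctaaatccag
TAATTA occurred 2 times in this HESX1 stretch and 0 times in the 250 bases upstream of the other 7 member starts, while 4.35% of all 35116 promoter windows of that length held it. The motif GGATTA (or TAATCC on the other strand) occurred 0 times in the 250 bases upstream of the 8 member starts and in 5.62% of all windows. These are matches of letters in a window and say nothing of binding.

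SIX3 (ENSG00000138083, chromosome 2 from 44941898 to 44946077, plus strand, with all gene positions on GRCh38 by GENCODE v29) and SIX6 (ENSG00000184302, chromosome 14 from 60508951 to 60512850, plus strand) stood highest in the knockout at day 6. SIX6 had 964 UMIs in knockout and 86 in wild-type cells at day 6, and 18 in knockout and 55 in wild-type cells at day 0. As levels these were 14.8 CPM (13.8 to 15.7) and 1.67 CPM (1.34 to 2.07) at day 6, and 0.245 CPM (0.145 to 0.387) and 0.749 CPM (0.564 to 0.975) at day 0, knockout before wild type in each pair. Ranges in parentheses are exact 95% intervals (Poisson for levels, conditional Clopper-Pearson for ratios, Clopper-Pearson for shares) and cover counting error only. The knockout level of SIX6 was 8.82 times the wild-type level at day 6 (7.07 to 11.1) and 0.327 times at day 0 (0.181 to 0.566), so the genotypes stood in opposite order on the 2 days.

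SIX3 showed the same order with smaller ratios. It had 602 UMIs in knockout and 110 in wild-type cells at day 6 (9.21 and 2.14 CPM), and 54 in knockout and 138 in wild-type cells at day 0 (0.735 and 1.88 CPM). The ratio of knockout over wild type was 4.31 (3.51 to 5.33) at day 6 and 0.391 (0.280 to 0.539) at day 0. Between days the genotypes differed too. SIX3 was 12.5-fold higher at day 6 than at day 0 in the knockout (9.48 to 16.9) and 1.14-fold in wild type (0.878 to 1.47), and SIX6 was 60.2-fold higher in the knockout (37.9 to 102) and 2.23-fold in wild type (1.57 to 3.19).

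**Figure D1:**
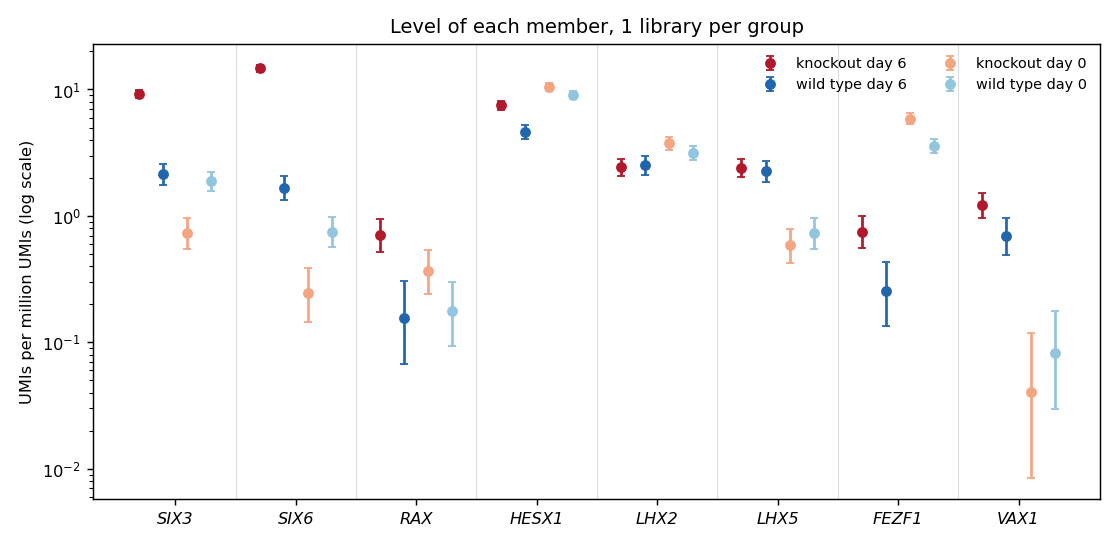
Level of each of the 8 members in the 4 libraries, as CPM on a log axis. Points are the summed cells of 1 library and bars are exact Poisson 95% intervals. SIX6 reached 14.8 CPM in the knockout at day 6, against 1.67 CPM in wild type, while HESX1 stayed between 4.65 and 10.5 CPM in all 4 libraries.

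Both genes were found in few cells, and in more cells and at more UMIs per cell in the knockout at day 6. At 4000 UMIs per cell, SIX6 had a UMI in 4.21% of knockout cells (3.64 to 4.84) and 0.633% of wild-type cells (0.439 to 0.883) at day 6, and in 0.0687% and 0.361% at day 0. SIX3 had a UMI in 2.76% of knockout cells (2.30 to 3.29) and 0.782% of wild-type cells (0.564 to 1.06) at day 6, and in 0.247% and 0.542% at day 0. If 10% of each cell's UMIs were free RNA, SIX6 would be found by that alone in 0.401% of knockout and 0.0701% of wild-type cells at day 6, and SIX3 to 0.361% and 0.140%, so the measured shares were above that background. Over all UMIs, SIX6 was found in 356 knockout cells with 2.71 UMIs each and a highest count of 23, and in 56 wild-type cells with 1.54 UMIs each and a highest count of 5. Of these, 52 knockout and 4 wild-type cells held at least 5 SIX6 UMIs, though knockout cells were also sequenced more deeply. Cells that still had POU5F1 carried SIX6 less often than cells without it at day 6: 1.14% against 5.63% in the knockout and 0.156% against 0.899% in wild type. At day 0 the order was the same, with 0.0143% against 1.43% of knockout and 0.191% against 3.25% of wild-type cells.

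RAX (ENSG00000134438, chromosome 18 from 59267035 to 59274086, minus strand) was near the detection limit. It had 46 UMIs in knockout and 8 in wild-type cells at day 6, and 27 in knockout and 13 in wild-type cells at day 0. The knockout level was 4.53 times that of wild type at day 6 (2.12 to 11.1) and 2.08 times at day 0 (1.04 to 4.38). Over all UMIs, with depth not equalised, 22 of the 37 knockout cells with RAX at day 6 also held SIX6. The product of the shares gave 2.98. At 4000 UMIs per cell, 3 of 10 did, against 0.421 expected.

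HESX1 (ENSG00000163666, chromosome 3 from 57197838 to 57227606, minus strand) had another pattern than SIX3 and SIX6, present on both days. It had 489 UMIs in knockout and 239 in wild-type cells at day 6 (7.48 and 4.65 CPM), and 770 in knockout and 665 in wild-type cells at day 0 (10.5 and 9.06 CPM). Its ratio of knockout over wild type was 1.61 at day 6 (1.38 to 1.89) and 1.16 at day 0 (1.04 to 1.29). At day 6 it stood at 0.714 times its day 0 level in the knockout (0.636 to 0.801) and 0.513 times in wild type (0.441 to 0.596). Cells with and without POU5F1 carried it at like shares: 2.29% against 2.55% of knockout and 2.03% against 1.62% of wild-type cells at day 6, and 3.62% against 3.93% of knockout and 3.48% against 3.90% of wild-type cells at day 0.

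LHX2 (ENSG00000106689, chromosome 9 from 124001670 to 124033301, plus strand) differed little between genotypes at day 6. It had 159 UMIs in knockout and 130 in wild-type cells at day 6 (2.43 and 2.53 CPM), and 276 in knockout and 232 in wild-type cells at day 0 (3.76 and 3.16 CPM). Its ratio of knockout over wild type was 0.963 at day 6 (0.759 to 1.22) and 1.19 at day 0 (0.995 to 1.42), both intervals holding 1, and the log2 ratio at day 6 turned from -0.06 to 0.03 when free RNA was subtracted. LHX5 (ENSG00000089116, chromosome 12 from 113462034 to 113472280, minus strand) had 157 UMIs in knockout and 116 in wild-type cells at day 6 (2.40 and 2.26 CPM), and 43 in knockout and 54 in wild-type cells at day 0 (0.585 and 0.735 CPM). Its ratio between genotypes was 1.07 at day 6 (0.833 to 1.37) and 0.796 at day 0 (0.521 to 1.21), and its log2 ratio at day 6 changed sign with the scaling (0.09 per total UMIs, -0.13 with TMM factors). Between days LHX5 was 4.10-fold higher at day 6 in the knockout (2.91 to 5.89) and 3.07-fold in wild type (2.20 to 4.32).

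FEZF1 (ENSG00000128610, chromosome 7 from 122301394 to 122310691, minus strand) stood higher at day 0 than at day 6 in both genotypes. It had 49 UMIs in knockout and 13 in wild-type cells at day 6 (0.750 and 0.253 CPM), and 433 in knockout and 263 in wild-type cells at day 0 (5.90 and 3.58 CPM). Its day 6 level was 0.127 times the day 0 level in the knockout (0.0927 to 0.171) and 0.0706 times in wild type (0.0371 to 0.123). The knockout stood above wild type on both days, by 2.97-fold at day 6 (1.58 to 5.96) and 1.65-fold at day 0 (1.41 to 1.93). VAX1 (ENSG00000148704, chromosome 10 from 117128521 to 117138301, minus strand) ran the other way between days, with 80 UMIs in knockout and 36 in wild-type cells at day 6, and 3 in knockout and 6 in wild-type cells at day 0. Its ratio of knockout over wild type was 1.75 at day 6 (1.17 to 2.67). At 4000 UMIs VAX1 had a UMI in 0.498% of knockout and 0.335% of wild-type cells at day 6. At day 0 it had one in 0 of 7275 knockout cells, which allows a share of up to 0.0412%, and in 0.0723% of wild-type cells. FEZF1 had a UMI in 0.294% of knockout and 0.0745% of wild-type cells at day 6, and in 2.30% and 1.48% at day 0, so the 2 genes were most frequent on opposite days.

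**Figure D2:**
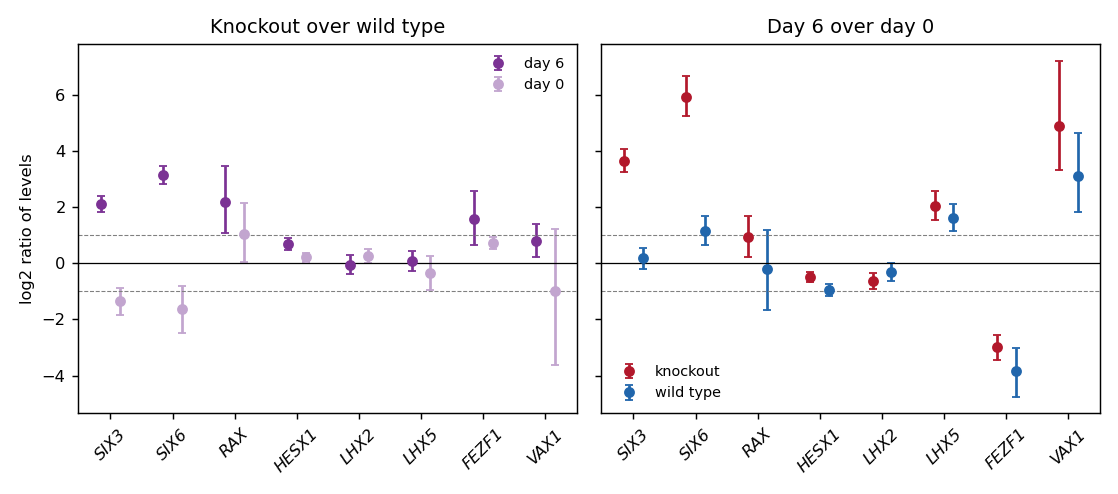
Log2 ratio of the level of each member, knockout over wild type at day 6 and day 0 (left) and day 6 over day 0 in knockout and wild type (right). Points are ratios of 2 libraries, bars are exact 95% counting intervals and dashed lines mark 2-fold. SIX3 and SIX6 lie above 0 at day 6 and below 0 at day 0 in the left panel, and FEZF1 lies below 0 in both genotypes in the right panel.

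Counted over all 8 members, 4 were at least 2-fold higher in the knockout at day 6 (SIX3, SIX6, RAX and FEZF1) and 0 lower. Among all 22570 genes with at least 3 UMIs in 1 of the 2 libraries, 11.5% were 2-fold higher and 8.33% lower. The members were chosen with earlier results of these data known, so setting their count beside these shares is a description only. The median log2 ratio of the 8 members was 1.16, beside 0.26 over all genes of at least 5 CPM. Only 3 members (SIX3, SIX6 and HESX1) reached 5 CPM in 1 of the day 6 libraries. SIX3 and SIX6 did so only through the knockout, where they were high, so their passing 2-fold is a description and lends the count no support. At that level 3.86% of 10747 genes were 2-fold higher and 2.44% lower. Those shares rest on 415 genes higher and 262 lower, a split that became 175 and 399 with TMM factors, 162 and 417 with median-of-ratios factors, and 372 and 357 when ribosomal protein and mitochondrial genes were left out of the totals. Under each of these 3 scalings 4 of the 8 members were still 2-fold higher.

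At day 0, 1 member (RAX) was 2-fold higher in the knockout and 2 (SIX3 and SIX6) were lower, beside 3.88% and 9.16% of the 23898 genes with at least 3 UMIs. The RAX call, from 27 and 13 UMIs, was lost with the other cell limit (log2 ratio 0.93), with cells of at least 6000 UMIs (0.84), with doublet scores removed (0.95) and with free RNA subtracted (0.83). HESX1 and FEZF1 were the members at 5 CPM or more, and 0 of these 2 passed 2-fold, beside 0.535% of 11207 genes higher and 0.750% lower. From day 0 to day 6 in the knockout, 4 of 8 members were higher and 1 lower, beside 12.2% and 20.2% of 23540 genes. In wild type 3 were higher (SIX6, LHX5 and VAX1) and 1 lower (FEZF1), beside 10.0% and 31.6% of 23851 genes. Of the 4 knockout members at 5 CPM or more on either day, 2 were higher (SIX3 and SIX6) and 1 lower (FEZF1), each kept only through the day on which it was high, beside 6.18% higher and 10.3% lower of 11425 genes. The lone wild-type member at that level, HESX1, passed 2-fold in neither direction, beside 6.22% higher and 21.5% lower of 11413 genes. In these day comparisons the split of genes of at least 5 CPM also moved with scaling: 706 higher and 1178 lower in the knockout became 900 and 932 with TMM factors, and 710 and 2457 in wild type became 1421 and 1214. The comparisons share libraries with one another and are not independent.

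The knockout levels also differed between cells by their chromosome 20 share. At day 6, SIX3 stood at 19.6 CPM (17.6 to 21.8) in knockout cells with at least 3% of UMIs from chromosome 20 and at 5.33 CPM (4.70 to 6.03) in those under 3%, and SIX6 at 20.4 CPM (18.3 to 22.6) and 12.7 CPM (11.7 to 13.7). LHX5 (4.12 and 1.76 CPM) and VAX1 (2.82 and 0.630 CPM) followed the same order. In wild-type cells at day 6 the intervals of the classes overlapped for SIX3 (2.22 CPM at 3% or more and 1.81 CPM under 3%), and SIX6 was lower in the first class (1.37 and 2.85 CPM). At day 0 the knockout cells at 3% or more held 1.34 CPM of SIX3 and 0.548 CPM of SIX6, and those under 3% 0.506 and 0.131 CPM. FEZF1 ran the other way at day 0, with 3.54 CPM at 3% or more and 6.78 CPM under 3%. With only knockout cells of at least 3% kept, the log2 ratio to wild type was 3.19 for SIX3 and 3.60 for SIX6 at day 6, and -0.46 and -0.40 at day 0, so that at day 0 the lower SIX3 and SIX6 no longer passed 2-fold. In the same cells FEZF1 stood at a day 0 log2 ratio of -0.01, against 0.72 over all knockout cells. Their day 0 log2 ratio was -0.04 for HESX1 and 0.83 for LHX5, both of the other sign than over all knockout cells, and HESX1 stood at 0.03 between days, against -0.49. The part of the chromosome 20 share in these differences was not tested.

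Members were found together in cells more often than their single shares give. At 4000 UMIs per cell, at least 2 of the 8 were detected in 64 knockout cells (1.45%, 1.12 to 1.85) and 20 wild-type cells (0.372%, 0.228 to 0.574) at day 6, and in 40 knockout (0.550%) and 29 wild-type cells (0.524%) at day 0. If members were independent, 25.5, 6.64, 16.8 and 12.0 cells would hold 2 or more, in that order of libraries. Relative to the number expected, the excess was larger for 3 or more members, with 16 knockout and 2 wild-type cells at day 6 against 0.631 and 0.0787 expected. Over all UMIs, 1 knockout cell at day 6 held 7 of the 8 members.

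At day 6 and 4000 UMIs, SIX3 with SIX6 was the pair found together in the most cells of each genotype. Over all UMIs that held in the knockout (127 cells), while in wild type HESX1 with LHX5 was found in 18 cells and SIX3 with SIX6 in 11. At 4000 UMIs, 29 knockout cells held both, against 5.14 expected, and 6 wild-type cells, against 0.266 expected. Of SIX3 cells, 23.8% (16.5 to 32.3) of knockout and 14.3% (5.43 to 28.5) of wild-type ones held SIX6, while 3.65% and 0.526% of cells without SIX3 did. At day 0, 5 wild-type cells held both, against 0.108 expected, and with all UMIs counted 7 knockout cells, against 0.0625 expected. In wild type at day 0, LHX2 was found in 26.7% of SIX3 cells (12.3 to 45.9) and 1.40% of the other cells. Over all UMIs at day 6 in the knockout, 22 of the 23 pairs with at least 5 cells expected or observed lay above the product of the shares. The exception was HESX1 with VAX1, found in 4 cells against 5.96 expected. A pair with under 5 cells expected was kept only if at least 5 were observed, so it had to lie above. Depth was not equalised there either, so the 22 of 23 is a description. At 4000 UMIs only 5 pairs were kept, all above, and 7 of the 28 pairs had 0 cells. Cells of 1 library share a culture and a preparation, so these counts describe each library and call nothing particular to the members.

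**Figure D3:**
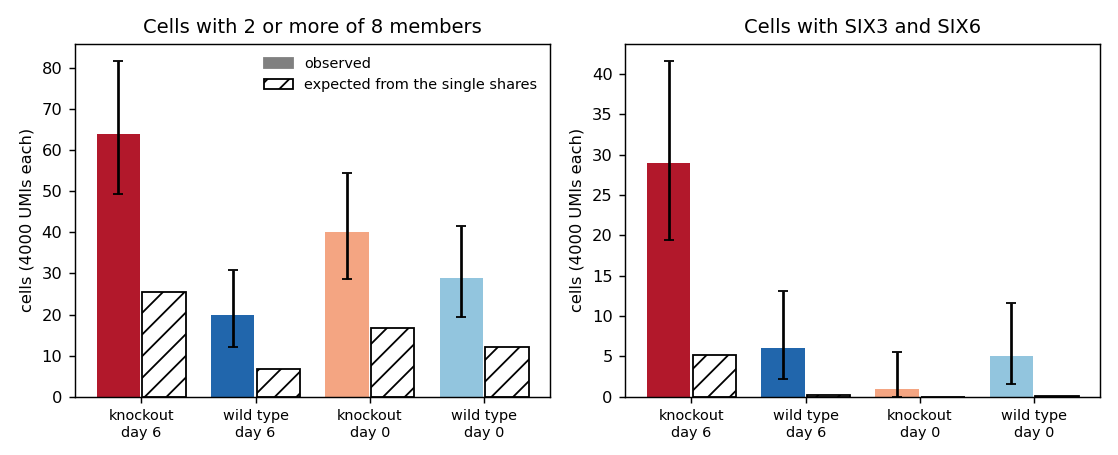
Number of cells with 2 or more of the 8 members (left) and with both SIX3 and SIX6 (right) in each library, at 4000 UMIs per cell. Filled bars are observed cells with exact Poisson 95% intervals, and hatched bars are the number expected from the single shares. Knockout cells at day 6 show 64 against 25.5 in the left panel and 29 against 5.14 in the right panel.

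Cells with 2 or more members differed from cells with none in the rest of their RNA. OTX2, a homeodomain factor of forebrain and midbrain, had a UMI in 26.6% of the 64 knockout cells (16.3 to 39.1) and 3.77% of the 3950 knockout cells without members (3.20 to 4.41), and in 40.0% of the 20 wild-type cells (19.1 to 63.9) and 5.67% of the 5093 without members. POU5F1 was found in 3.12% of the knockout cells with members (0.381 to 10.8) and 33.5% of those without, and in 15.0% (3.21 to 37.9) and 36.0% in wild type. OTX2 was thus more frequent beside the members in both genotypes, and POU5F1 less frequent beyond its counting interval in the knockout. SOX2, a factor of both neural and pluripotent cells, was at 87.5% and 78.6% in the knockout and 75.0% and 75.5% in wild type. FOXA2, a floor plate factor, was found in 34.4% (23.0 to 47.3) and 26.4% of knockout cells and in 5.00% (0.127 to 24.9) and 26.4% of wild-type cells, with and without members. GBX2, a factor of the anterior hindbrain, was at 12.5% and 13.4% in the knockout.

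Some patterning genes were not detected in these cells. EMX2, a marker of the dorsal telencephalon, and the midbrain, isthmus and floor plate genes FGF8, SHH, WNT1 and EN2 each had a UMI in 0 of the 64 knockout cells and 0 of the 20 wild-type cells, which allows a share of up to 4.69% and 15.0%. In knockout cells without members their shares were 0.0253% to 0.506%, so these few cells could not show a difference. Other midbrain genes were detected: EN1 and LMX1A each had a UMI in 4.69% of the knockout cells with members (0.977 to 13.1). In knockout cells without members their shares were 2.89% and 0.911%. In wild type EN1 was found in 0 of the 20 cells and LMX1A in 5.00% (0.127 to 24.9), against 0.628% and 0.255% without members. FABP7, a radial glial gene, ran opposite ways: 15.6% of knockout cells with members (7.76 to 26.9) and 30.5% of those without carried it, against 35.0% (15.4 to 59.2) and 7.64% in wild type. MKI67, a proliferation gene, was at 48.4% and 35.5% in the knockout and at 50.0% and 22.0% in wild type. Knockout cells with members had a median of 14238.5 UMIs before thinning and those without 13151, and 43.8% and 26.5% of them had at least 3% of UMIs from chromosome 20. In wild type both stood in the other order. The medians were 8175.5 with members and 8599 without, and 55.0% and 78.4% had at least 3% of UMIs from chromosome 20. The part of these in the differences was not tested.

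**Figure D4:**
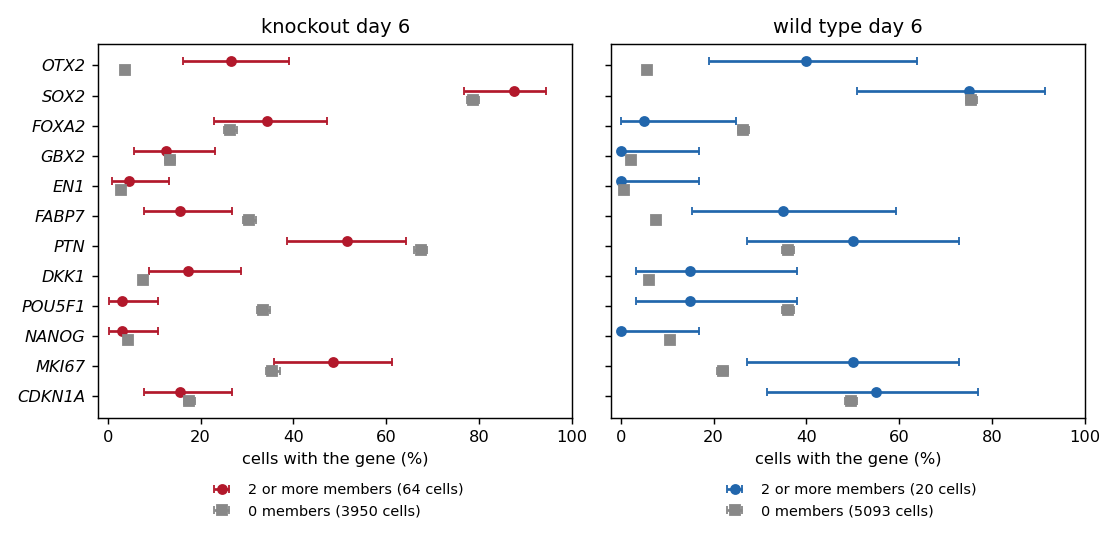
Share of cells with a UMI of each of 12 genes at 4000 UMIs per cell, in cells with 2 or more members (circles) and with 0 members (squares), in the knockout (left) and wild type (right) at day 6. Bars are exact binomial 95% intervals. OTX2 is more frequent with members in both libraries (26.6% against 3.77% and 40.0% against 5.67%), and POU5F1 less frequent in the knockout (3.12% against 33.5%).

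Ranked over all other genes of at least 20 CPM in the 64 knockout cells, the highest ratios to cells without members belonged to FEZF2, the paralogue of FEZF1, at 23.4 and 0.316 CPM, CAPN6, FGF17, the vesicle protein gene SYT4, MEG8, C6orf141, the WNT receptor gene FZD5, SLITRK1, MEG3 and LHX5-AS1. All 10 reached 20 CPM only through these cells, where they were high, so the ranking is a description. Those other than FZD5 rest on 6 to 13 UMIs in these cells, and LHX5-AS1 overlaps the member LHX5. FZD5 had 38 UMIs in the 64 cells and stood at 148 and 10.7 CPM, 13.9-fold higher (9.49 to 19.8). The lowest were BGN, CRABP1 (305 and 1280 CPM), CITED2, MT1E and PODXL, at 3.56-fold to 4.22-fold lower. Genes under 20 CPM in the cells with members were left out, here and in wild type, so larger falls could be missed. In wild type the 20 cells held few UMIs, so that 20 CPM is 2 UMIs, and the 10 highest (FEZF1-AS1, KCNJ3, SELE, GAD2, SIX3-AS1, HES5, SYT4, EPHA7, HHIP and SLITRK1) rest on 2 to 4 UMIs each. The 5 lowest in wild type were KRT19, DSP, FN1, TAGLN and RAB34, also at 2 to 4 UMIs. DLK1, MEG3, MEG8, RMST, SLITRK1 and SYT4 were among the 30 highest in both libraries. DLK1, an imprinted gene of a NOTCH-like ligand that lies in one cluster with MEG3 and MEG8, stood at 750 and 72.7 CPM in the knockout (10.3-fold, 8.81 to 12.0) and 1038 and 54.6 CPM in wild type (19.0-fold, 15.0 to 23.8). With all UMIs used, a choice made after seeing the data that gives 296 knockout and 58 wild-type cells, DLK1 was 7.19-fold higher in the knockout and 14.9-fold in wild type, and FZD5 9.71-fold and 6.81-fold. That ranking took genes of at least 20 CPM in either class of cells. Among its 10 highest in the knockout were CAPN6, FZD5, SLITRK1, MEG3 and LHX5-AS1, while FEZF2, FGF17, SYT4, MEG8 and C6orf141 were not. Its lowest were CNMD, RARRES2, APELA, LMCD1 and POU5F1 in the knockout, at 3.02-fold to 3.45-fold lower. In wild type they were PLA2G2A, MIR205HG, NANOG, FN1 and LINC01405, with 0 to 10 UMIs in the cells with members.

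Each library was clustered without the members among the variable genes, and SIX3 and SIX6 UMIs were spread unevenly over its clusters. In the knockout at day 6, a cluster of 705 cells (16.0% of the library) led by AL157396.1, SAT1, CNTNAP2, SHISA2 and LGI1 held 57.5% of SIX6, 52.3% of SIX3, 54.8% of LHX5 and 54.3% of RAX UMIs, and SIX6 stood there at 49.5 CPM. A cluster of 813 cells led by the mitotic genes CENPA, KIF20A and NEK2 held another 27.1% of SIX6 and 28.4% of SIX3. It was 18.4% of the cells, with a median of 16993 UMIs against 13169 over the library. Its parts of SIX6 and SIX3 are therefore not read as a concentration. In wild type at day 6, a cluster of 1024 cells led by DLK1, PTN, ENC1 and RHOU held 68.6% of SIX6, 42.7% of SIX3 and 62.1% of LHX5 UMIs, at 6.55 CPM of SIX6. Each of these 2 clusters also had CNTNAP2, LGI1, RHOU and DLK1 among its 10 leading genes. A wild-type cluster of 1240 cells led by PROX1, IGFBP5 and LINC00261, with FOXA2 among its 10 leading genes, held 1.16% of SIX6 and 11.8% of SIX3 UMIs.

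At day 0 SIX3 and SIX6 sat mostly in 1 small cluster of each library. In the knockout, 255 cells (3.51%) led by COL2A1, DLK1, IGFBP5 and WLS held 83.3% of SIX6 and 68.5% of SIX3 UMIs, at 6.32 and 15.6 CPM. In wild type, 194 cells (3.51%) led by IGFBP5, CDH6, LHX5-AS1 and DLK1 held 85.5% of SIX6, 82.6% of SIX3 and 100% of the 6 VAX1 UMIs, with SIX6 at 26.2 CPM and SIX3 at 63.6 CPM. These clusters were of like share in both genotypes, while the level of SIX3 within them was 15.6 CPM in the knockout and 63.6 CPM in wild type. Without these clusters (an alternative chosen after seeing the data), SIX3 had a day 0 log2 ratio of knockout over wild type of -0.47, against -1.35 with them. HESX1 and FEZF1 were spread differently: the same clusters held 10.0% and 7.90% of their UMIs in the knockout and 7.67% and 14.8% in wild type, and the rest lay in the large clusters. In wild type at day 0, HESX1 was also high in 156 cells led by HOXB-AS3, LHX1, APLNR and TFF3, at 38.9 CPM.

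**Figure D5:**
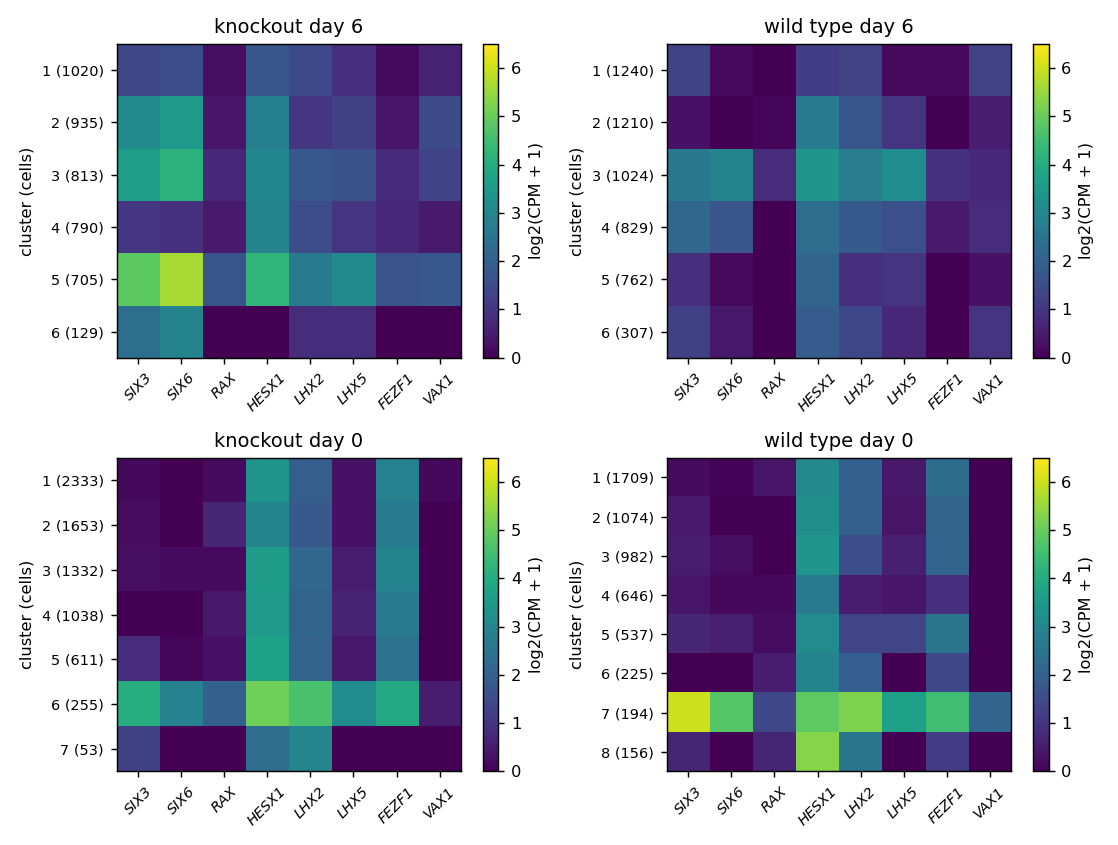
Level of the members in each cluster of at least 50 cells, as log2(CPM + 1), for the 4 libraries, with the number of cells in parentheses. Clusters were made within each library, so their numbers do not match between panels. SIX3 and SIX6 are highest in cluster 5 of the knockout and cluster 3 of wild type at day 6, and in cluster 6 of the knockout and cluster 7 of wild type at day 0, while HESX1 and FEZF1 show in most day 0 clusters.

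Antisense RNAs lie beside 3 members. LHX5-AS1 overlaps LHX5 and stood at 7.65 CPM in knockout and 4.76 CPM in wild-type cells at day 6, and at 2.41 and 1.95 CPM at day 0. Of the cells with LHX5, 44.1% (35.6 to 52.9) of knockout and 27.5% (19.1 to 37.2) of wild-type ones at day 6 also held LHX5-AS1. FEZF1-AS1, inside the FEZF1 locus, followed FEZF1 between days, at 0.704 CPM in knockout and 0.175 CPM in wild-type cells at day 6, and at 4.94 and 3.31 CPM at day 0. SIX3-AS1 had 43 UMIs in knockout and 18 in wild-type cells at day 6, and 21 of the 37 knockout cells with it also held SIX3. The sources used here do not say whether the counting used strand, so reads of LHX5 and FEZF1 and of their overlapping antisense genes may not be fully told apart.

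Other genes of the forebrain and eye field were read at day 6 beside all genes, of which 3.86% were 2-fold higher and 2.44% lower. Of 42 further forebrain and eye field genes, 15 reached 5 CPM, of which 1 was 2-fold higher in the knockout (ZIC5, a zinc finger factor, at 15.9 and 6.61 CPM) and 0 lower. Their median log2 ratio was 0.51, beside 0.26 over all genes. SHISA2, which dampens WNT and FGF receptors, stood at 40.0 CPM in the knockout and 21.3 CPM in wild type (1.88-fold). Of 8 measured midbrain and isthmus genes, 3 were 2-fold higher and 0 lower (PAX8 16.5-fold, GBX2 6.60-fold and EN1 5.95-fold, all factors of the midbrain-hindbrain region), with a median of 0.85. PAX8 (11.9 and 0.720 CPM) and EN1 (9.60 and 1.61 CPM) reached 5 CPM only through the knockout, where they were high, so the counts of these lists are descriptions and were not compared. Of 4 floor plate genes, 1 was higher (PTCH1, the Hedgehog receptor, 3.01-fold; NTN1 stood at 0.583-fold and BMP7 at 1.34-fold) and 0 lower. In the hindbrain list MEIS2 stood at 1.26-fold.

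Of 11 general neural progenitor genes, 3 were higher (FABP7 5.95-fold, PLAGL1 2.37-fold and SOX3 2.15-fold) and 0 lower, with a median of 0.19. Of 14 secreted WNT, BMP and NODAL inhibitors and related genes, 2 were higher and 4 lower, with GREM1 at 0.398 and 17.6 CPM, LEFTY2 at 0.505 and 5.91 CPM and BAMBI at 3.60 and 9.37 CPM. Of 10 pluripotency genes, 1 was higher (L1TD1, 2.45-fold) and 2 lower (UTF1 at 0.194-fold and NANOG at 0.408-fold). Among markers of other cell types, neural crest had 3 of 6 higher and 2 lower (ERBB3 2.97-fold, ETS1 0.260-fold, PAX3 0.308-fold), mesoderm and endoderm 1 of 3 higher and 1 lower (KDR 2.63-fold, COL1A1 0.256-fold, CXCR4 1.67-fold), surface ectoderm 0 of 5 higher and 2 lower (KRT8 0.484-fold, KRT19 0.487-fold) and neurons 1 of 6 higher and 0 lower (TAGLN3 3.48-fold, INA 0.629-fold, ELAVL3 0.635-fold). GREM1, LEFTY2, BAMBI, ETS1 (1.84 and 7.06 CPM) and PAX3 (2.20 and 7.16 CPM) reached 5 CPM only through wild type, where they were high. SOX3 (10.7 and 4.96 CPM) did so only through the knockout. The counts of all these lists are therefore descriptions too. At day 0, the 12 measured genes of the further forebrain and eye field list had 0 higher and 0 lower, with a median of 0.22 beside -0.01 over all genes.

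Across the 4 libraries, the genes whose centred log2 levels lay closest to SIX3 among 11752 genes included HHIP-AS1, RASGEF1B, FREM1, PDE4B, TFPI, ROCR, ANKRD18A, WIF1 and ARHGAP28, with root mean square differences of 0.203 to 0.288. PDE4B, a cAMP phosphodiesterase gene, stood at 12.1 CPM in knockout and 2.49 CPM in wild-type cells at day 6, and at 1.21 and 1.55 CPM at day 0. The 10 closest to HESX1 (AC026689.1, NLRX1, FCHSD1, RCOR2, CDK2AP1, KIAA0408, RRAGA, MYH10, ADNP2 and FBXO8) differed by only 0.0116 to 0.0336. CDK2AP1 stood at 231 and 147 CPM at day 6 and 308 and 267 CPM at day 0, knockout before wild type. With 4 points such likeness is common, and it is a description of these libraries.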

How the data were processed

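RNA was measured by droplet sequencing of transcript 3′ ends (10x Chromium, per the labels) in 4 H9 libraries, grouped by the labels of genotype and day. The authors deposited whole-number UMI counts, with no scaling, for each gene in each barcode. Per the submitters' processing notes they used Cell Ranger 6.1.2 and GRCh38, and per the file headers the matrices name Cell Ranger 4. The deposited counts held every barcode, so cells were called here by the limits in the report. Counts were summed over cells and scaled to 1000000 UMIs. Log2 ratios used a prior count of 0.5. Thinning drew 4000 UMIs per cell without replacement. Free RNA came from barcodes of 1 to 50 UMIs. The chromosome 20 share of a cell was its UMIs from that chromosome over all its UMIs, both without mitochondrial and ribosomal protein genes. Clusters used scanpy 1.11.5 (10000 counts per cell, log transformation, 2000 variable genes, 30 components, 15 neighbours, Leiden resolution 0.5). Doublets were kept, since Scrublet's automatic threshold marked 0 cells. TMM factors came from edgeR 4.0.16. The 2-fold call, the ratio interval, thinning and co-detection were tested on simulated counts, and the other steps were not.

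The members and gene lists were chosen with earlier results of these data known. Named genes were all 8 members. Others were the 10 highest and 5 lowest ratios in cells with members per day 6 library at 20 CPM or more (with those among the 30 highest in both), the 10 genes most like SIX3 and HESX1 (prior 1 CPM), and up to 3 with the largest ratios per list. The antisense genes were added after their values were seen. Some genes that this rule names are not reported here.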

Additional observations from a re-analysis of the deposited data

Results flagged for a closer look

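SIX3 and SIX6 were the 2 members whose ratio of knockout over wild type lay above 1 at day 6 and below 1 at day 0 with both counting intervals clear of 1. LHX2, LHX5 and VAX1 also had opposite signs on the 2 days, with at least 1 interval holding 1. For SIX6 the log2 ratio was 3.13 at day 6 and -1.59 at day 0, a difference of 4.72. For SIX3 it was 2.10 at day 6 and -1.35 at day 0, a difference of 3.45. Both day 0 ratios rest on few UMIs (18 and 55 for SIX6, 54 and 138 for SIX3, knockout before wild type). With 1 library per group the difference between days was not tested. In knockout cells with at least 3% of UMIs from chromosome 20 the day 0 log2 ratios were -0.40 for SIX6 and -0.46 for SIX3, and the part of that share in the difference was not tested.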

How the results depend on the processing

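No paired analysis was possible because each group had 1 library, and no library could be left out. Of the 288 recomputed member log2 ratios 255 stayed within the counting interval and 33 did not, and 0 of those past 2-fold changed sign. The cause of the changes was not tested. The setting of high chromosome 20 share kept all wild-type cells. The wild-type ratios between days therefore could not move under it, yet they are among the 255. For knockout over wild type at day 6 the ranges were 1.83 to 3.19 for SIX3, 2.89 to 3.60 for SIX6 and 0.44 to 0.96 for HESX1. TMM factors moved the median of all genes by -0.22 in that comparison, by 0.13 between days in the knockout and by 0.41 in wild type, where LHX2 changed sign (0.09 against -0.32).

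At day 0, the members 2-fold higher in the knockout were 0 in place of 1 (RAX) with the other cell limit, with cells of at least 6000 UMIs, with doublet scores removed and with free RNA subtracted. Those lower were 0 in place of 2 in knockout cells of high chromosome 20 share, and 1 without the SIX3-rich cluster. Members lower at day 6 than at day 0 were 2 in place of 1 in those knockout cells, and in wild type 2 with free RNA subtracted and 3 without that cluster. Genes of the other 11 lists lower in the knockout at day 0 (1) became 0 with TMM or median-of-ratios factors and 2 with totals without ribosomal genes, 6000 UMIs, doublets removed, free RNA subtracted or high chromosome 20 share. Those higher (2) became 4 without ribosomal genes or free RNA, and 1 at 6000 UMIs or high chromosome 20 share.

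The share of cells with at least 2 members was 1.45% and 0.372% at day 6 and 0.550% and 0.524% at day 0, knockout before wild type. In that order it became 0.475%, 0.0745%, 0.247% and 0.217% at 2000 UMIs, 6.70%, 1.08%, 2.17% and 2.30% unthinned, 10.6%, 5.19%, 7.63% and 7.14% for at least 1 member, and 0.362%, 0.0372%, 0.0412% and 0.163% for at least 3. Without HESX1 it was 1.04% in the knockout at day 6 and 0.179% at day 0, in knockout cells of high chromosome 20 share 2.32% at day 6, and in wild-type cells of 8000 to 16000 UMIs 0.345% at day 0. Cells with both SIX3 and SIX6 over expected were 5.65 and 22.6 at day 6 and 80.8 and 46.1 at day 0. At 2000 UMIs this was 0 in wild type at day 6 and 485 in the knockout at day 0, and at 8000 to 16000 UMIs 810 in the knockout and 126 in wild type at day 0. The day 0 values at 4000 UMIs rest on 1 knockout and 5 wild-type cells.

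Genes past the fold in the knockout at day 6 (415 higher, 262 lower) were 2073 and 542 at 1.5-fold, 66 and 123 at 3-fold, 2603 and 1881 with no minimum and 143 and 120 at 20 CPM. At day 0 (60 and 84) they were 207 and 307, 19 and 34, 928 and 2188, and 27 and 22. Between days in the knockout (706 and 1178) they were 1642 and 2593, 309 and 518, 2882 and 4751, and 388 and 504. In wild type (710 and 2457) they were 1380 and 4462, 339 and 954, 2389 and 7526, and 405 and 1162, and 1450 and 1192 with median-of-ratios factors. At resolution 1 the highest SIX6 level of a cluster was 94.7 CPM in the knockout and 15.6 CPM in wild type at day 6. Few UMIs (8 to 46 for RAX, 3 and 6 for VAX1 at day 0) limit what these libraries can show.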
